A study of Rattus norvegicus with 3 samples.

Results

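The genes described here encode parts of the muscle sarcomere and the keratins of epithelial cells. They were taken by name among the genes with a probe that could be named through RefSeq. Taken was every symbol that begins with Tnni, Tnnt, Tnnc or Myh, or with Myl or Krt and a digit. This gave 46 of the 8899 named genes, on 50 probes: 4 Tnni, 3 Tnnt, 1 Tnnc, 6 Myh, 5 Myl and 27 Krt genes. Only 10768 of 41012 probes were named, so further genes of these families may lie among the rest. The families were chosen by their highest members on the day 7 array against sham (Tnni3, Tnnt1, Krt8 and Krt26), so the day 7 differences are given as a description. The prefix rule also takes in Tnni3k, which encodes a heart kinase that binds troponin I and is no troponin itself.

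The study measured RNA of the rat vestibular nuclei, brainstem cell groups that receive balance signals from the inner ear, with 1 one-colour Agilent array per group. The labels describe the rats as Sprague-Dawley, adult and male, weighing 200 to 250 g. The groups were a control with sham operation, and the nuclei of the operated side at 1 and 7 days after labyrinthectomy (removal of the balance organ) of the left ear. Each group had 3 rats and 1 array, and whether the RNA of the 3 rats was pooled for that array is not settled here. The protocol text calls the control rats normal, and the control is called sham here. With 1 array per group no condition could be tested, no p-value is given, and every difference below is one between 2 arrays.

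In striated muscle, myosin heavy chains (Myh) pull on actin filaments and carry light chains (Myl) at their necks. Troponin sits on the actin filament as a complex of a calcium sensor (Tnnc), an inhibitory subunit (Tnni) and a subunit that binds tropomyosin (Tnnt), and heart, slow and fast muscle use different genes for each. Some Myh and Myl genes serve the contractile cortex of all cells. Keratins are intermediate filament proteins that assemble as pairs of a type I and a type II chain, such as Krt18 with Krt8 in simple epithelia or Krt14 with Krt5 in the basal layer of skin. Neurons and glia build other intermediate filaments.

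Each of the 50 probes lay on 1 spot. A level is log2 of the processed signal minus log2 of that array's own 75th percentile, which was 5692 intensity units in sham, 5242 at day 1 and 5676 at day 7. Probes printed on several spots had a median SD of at most 0.09 (log2) between their spots. The scanner software's own error is given below for Tnni3, Tnnt1 and Krt8. It reached across 2-fold for some smaller differences, such as Tnni2 (1.01 log2, error 0.27) and Myh6 (1.06, error 0.21) at day 7 against sham. Krt90 at day 1 was another (1.09, error 0.41). Both the SD and the scanner error cover the spot alone and hold nothing of animals, dissections or labellings. The flag "well above background" was set on 81.3% of spots in sham, 77.3% at day 1 and 76.9% at day 7, so dim genes were measured less often after surgery. Neuron markers were well above background for 15, 14 and 15 of 15 genes with a named probe (sham, day 1, day 7), and glia markers for 14, 15 and 15 of 15. Their levels were not steady: at day 7, 2 of 14 measured neuron markers were at least 2-fold higher than sham (Gad1 at 3.39 log2 and Gad2 at 1.30, enzymes of GABA synthesis) and 4 lower (the glycine transporter Slc6a5 at -5.26 and 3 neurofilament genes). Of 14 glia markers, 2 were higher (S100b at 1.89 and Aqp4 at 1.25) and Mbp was lower (-1.29), and S100b was at 3.19 at day 1. The part of these differences in the members' values was not tested.

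Of the 46 genes, 30 were well above background on all 3 arrays, 3 on 2 arrays, 6 on 1 array and 7 on none. None of the 50 probes was saturated or marked as an outlier spot. Genes not well above background anywhere were Tnni1 (the slow skeletal troponin I), Myl1, Myl2, Krt4, Krt13, Krt73 and Krt84. By array, 34 genes were well above background in sham, 35 at day 1 and 33 at day 7, so about as many were detected on each.

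**Figure D1:**
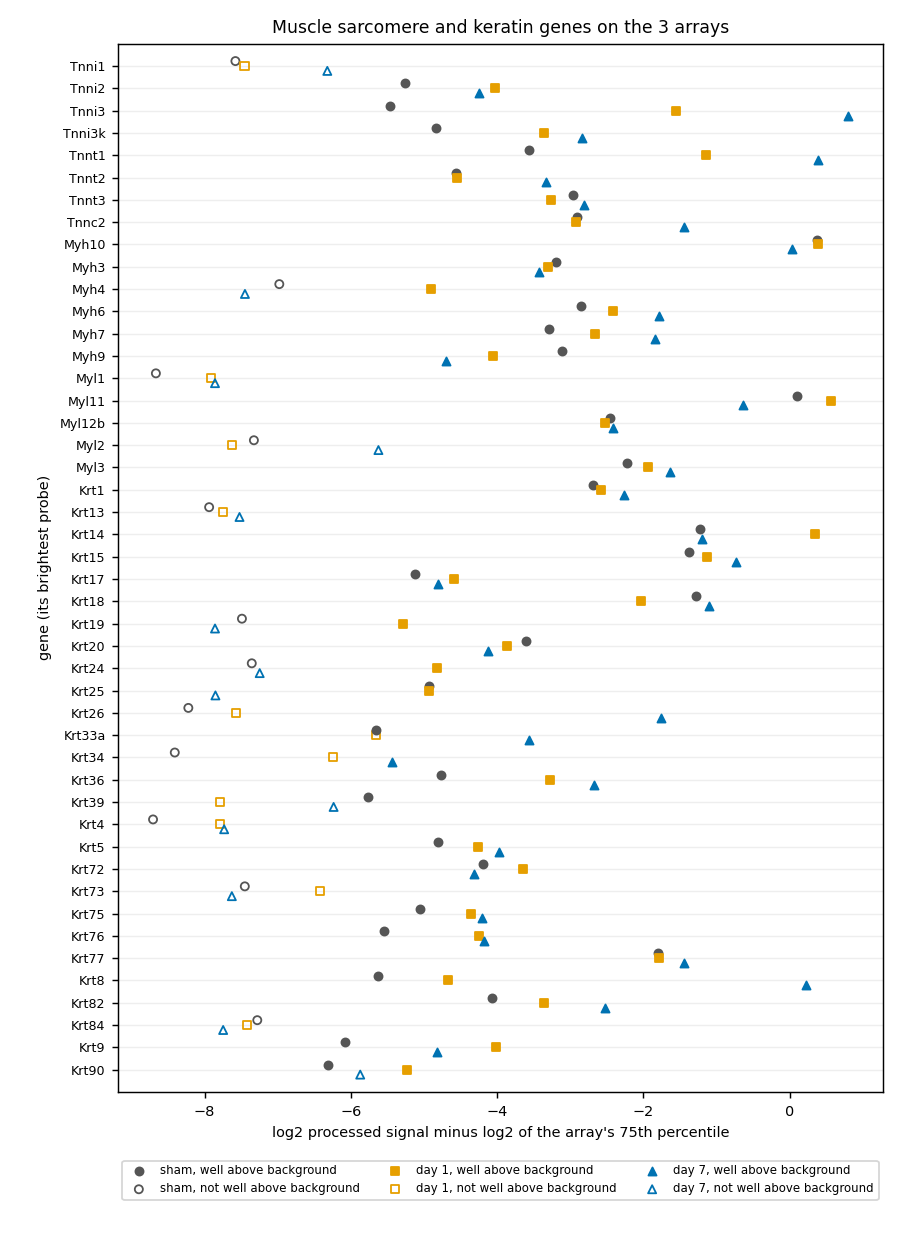
Level of each gene's brightest probe (x axis, log2 processed signal minus log2 of the array's 75th percentile) on the sham, day 1 and day 7 arrays, with open symbols where the spot was not well above background. Tnni3 (0.80), Tnnt1 (0.39), Krt8 (0.23) and Krt26 (-1.76) lie far to the right of their sham symbols at day 7, and levels of different genes are not comparable because probes differ.

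Troponin genes were higher at day 7 than in sham for 5 of 6 troponins measured on both arrays, by 2.02-fold to 76.3-fold, where 11.1% of all 6261 genes measured were at least 2-fold higher. Tnni3 and Tnnt1 are among the genes that led to the choice of the families, so nothing is read from that count. Tnni3, the heart form of troponin I, had a processed signal of 129 in sham, 1781 at day 1 and 9852 at day 7. Its level of -5.46 in sham became -1.56 at day 1 and 0.80 at day 7, which is 14.9-fold above sham and then 76.3-fold. The difference at day 7 was 6.25 log2 with a scanner error of 0.26, and among all 6261 genes measured it ranked 1 from the top. At day 1 its difference of 3.90 ranked 5 of 6292. It was the member with the largest difference from sham on either day among those measured on both arrays.

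Tnnt1, the troponin T of slow skeletal muscle, had processed signals of 481 in sham, 2378 at day 1 and 7419 at day 7. It was 5.36-fold higher at day 1 (2.42 log2, scanner error 0.21) and 15.5-fold higher at day 7 (3.95 log2, scanner error 0.21), rank 44 and rank 7. Both genes thus stepped up from sham to day 1 and again to day 7. The step from day 1 to day 7 was 2.35 log2 for Tnni3 and 1.53 log2 for Tnnt1.

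The remaining troponins differed less, and not all on the same day. Tnni2, the fast skeletal troponin I, had levels of -5.26, -4.03 and -4.25 on the sham, day 1 and day 7 arrays, 2.35-fold above sham at day 1 and 2.02-fold at day 7. Tnnt2, the heart troponin T, stood at -4.57, -4.55 and -3.33, so it equalled sham at day 1 (1.01-fold) and was 2.36-fold above it at day 7. Tnnc2, the calcium sensor of fast muscle, stood at -2.91, -2.92 and -1.45 and was 2.75-fold above sham at day 7 only. Tnnt3, the fast troponin T, differed little, at -2.96, -3.27 and -2.82. Tnni1 was not well above background on any array, with processed signals of 29.8, 29.9 and 71.0. The kinase gene Tnni3k stood at -4.83, -3.36 and -2.84, 2.77-fold above sham at day 1 and 3.97-fold at day 7.

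Striated-muscle myosin genes were split. The heart heavy chains Myh6 and Myh7, which lie next to each other in the genome, were 2.08-fold and 2.75-fold above sham at day 7, and 1.35-fold and 1.55-fold at day 1. Myh6 stood at -2.85, -2.41 and -1.79 and Myh7 at -3.30, -2.67 and -1.84. Myh3, the embryonic heavy chain, had 2 probes: the brighter one gave -0.11 (day 1) and -0.23 (day 7) against sham, and the other -0.12 and 0.61. Myh4, the heavy chain of the fastest fibres, was well above background at day 1 only, with processed signals of 45.2, 175 and 32.5, at least 2.84-fold higher than in sham.

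Light chain genes differed less than 2-fold from sham on both days wherever they were measured. Myl3, the light chain of ventricle and slow fibres, stood at -2.23, -1.93 and -1.64. Myl11, the fast skeletal regulatory light chain, stood at 0.09, 0.57 and -0.65, which made it 2.32-fold lower at day 7 than at day 1. Myl2 and Myl1, light chains of heart and fast muscle, were not well above background on any array, although the Myl2 spot read 35.5, 26.6 and 115.

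The non-muscle genes serve cells of every kind. Myh9, the heavy chain of non-muscle myosin IIA, was the only member measured on both arrays that was at least 2-fold lower than sham at day 7, with levels of -3.11, -4.06 and -4.70 (3.01-fold lower at day 7, 1.93-fold at day 1). Myh10, the IIB heavy chain that is common in brain, stood at 0.37, 0.38 and 0.04 by its brightest probe. A dimmer Myh10 probe was at -0.73 against sham at day 1, and the dimmest, not well above background at day 1, was at -0.15 at day 7. Myl12b, a light chain of non-muscle myosin, was level at -2.46, -2.52 and -2.42.

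Keratin genes were higher than sham by at least 2-fold for 6 of 16 measured at day 7, against 11.1% of all genes, and 5 of 17 at day 1, against 8.26%, and none was 2-fold lower. Krt8 was among the genes that led to the choice, and nothing is read from the day 7 count. Krt8, the type II keratin of simple epithelia, had processed signals of 115 in sham, 206 at day 1 and 6647 at day 7. Its difference from sham was 0.96 log2 at day 1 (1.94-fold, scanner error 0.32) and 5.85 log2 at day 7 (57.8-fold, scanner error 0.28), rank 2 of all genes on that day. Unlike Tnni3 and Tnnt1, most of its difference lay between day 1 and day 7 (4.89 log2). Krt18, the type I chain that Krt8 pairs with, stood at -1.28, -2.03 and -1.11 by its brighter probe, a difference of 0.17 at day 7. The dimmer Krt18 probe gave -4.29, -5.19 and -3.15, a difference of 1.14 at day 7, so the 2 probes disagree on whether the partner gene passed 2-fold. Both are far from the value of Krt8. Of the other simple-epithelium keratins, Krt20 stood at -3.60, -3.87 and -4.12, and Krt19 was well above background at day 1 only, at least 2.18-fold higher than in sham.

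Keratins of skin and other layered epithelia were not all highest on the same day. Of those measured on all arrays, Krt14, Krt9 and Krt17 were highest at day 1. Krt1, Krt5, Krt15, Krt76 and Krt77 were highest at day 7. Krt14, a basal-layer keratin, stood at -1.22, 0.34 and -1.20: it was 2.96-fold above sham at day 1 and back at the sham level at day 7 (1.02-fold). Krt5, its type II partner, stood at -4.80, -4.27 and -3.97 and passed 2-fold on neither day. Krt9, a keratin of palm and sole skin, was 4.19-fold above sham at day 1 and 2.40-fold at day 7. Krt76, of the palate, was 2.46-fold and 2.58-fold above it, and Krt90 2.13-fold at day 1. Krt1, Krt15, Krt17 and Krt77 were within 2-fold of sham on both days, with differences from 0.01 to 0.64 log2. Krt24 was well above background at day 1 only, at least 3.02-fold above sham.

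Keratins of hair and its root sheath included the largest bound. Krt26, an inner root sheath keratin, had processed signals of 19.1 in sham and 27.7 at day 1, neither well above background, and 1674 at day 7. It was at least 25.1-fold higher at day 7 than in sham and at least 14.2-fold higher than at day 1. The root sheath keratin Krt25, which lies next to it in the genome, was lower at day 7: 186 in sham, 172 at day 1 and 24.6 at day 7, where it was not well above background (at least 1.52-fold lower than sham). Hair keratins at least 2-fold higher at day 7 were Krt33a (4.29-fold), Krt36 (4.26-fold) and Krt82 (2.90-fold). Krt36 stood at -4.77, -3.28 and -2.68 and was already 2.80-fold above sham at day 1. Krt33a, at 112, 104 and 480, was not well above background at day 1. Krt34 was well above background at day 7 only, at least 1.97-fold higher than in sham. Krt72 and Krt75 stayed within 2-fold of sham, and Krt39 was well above background in sham only, with no bound above 1.

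**Figure D2:**
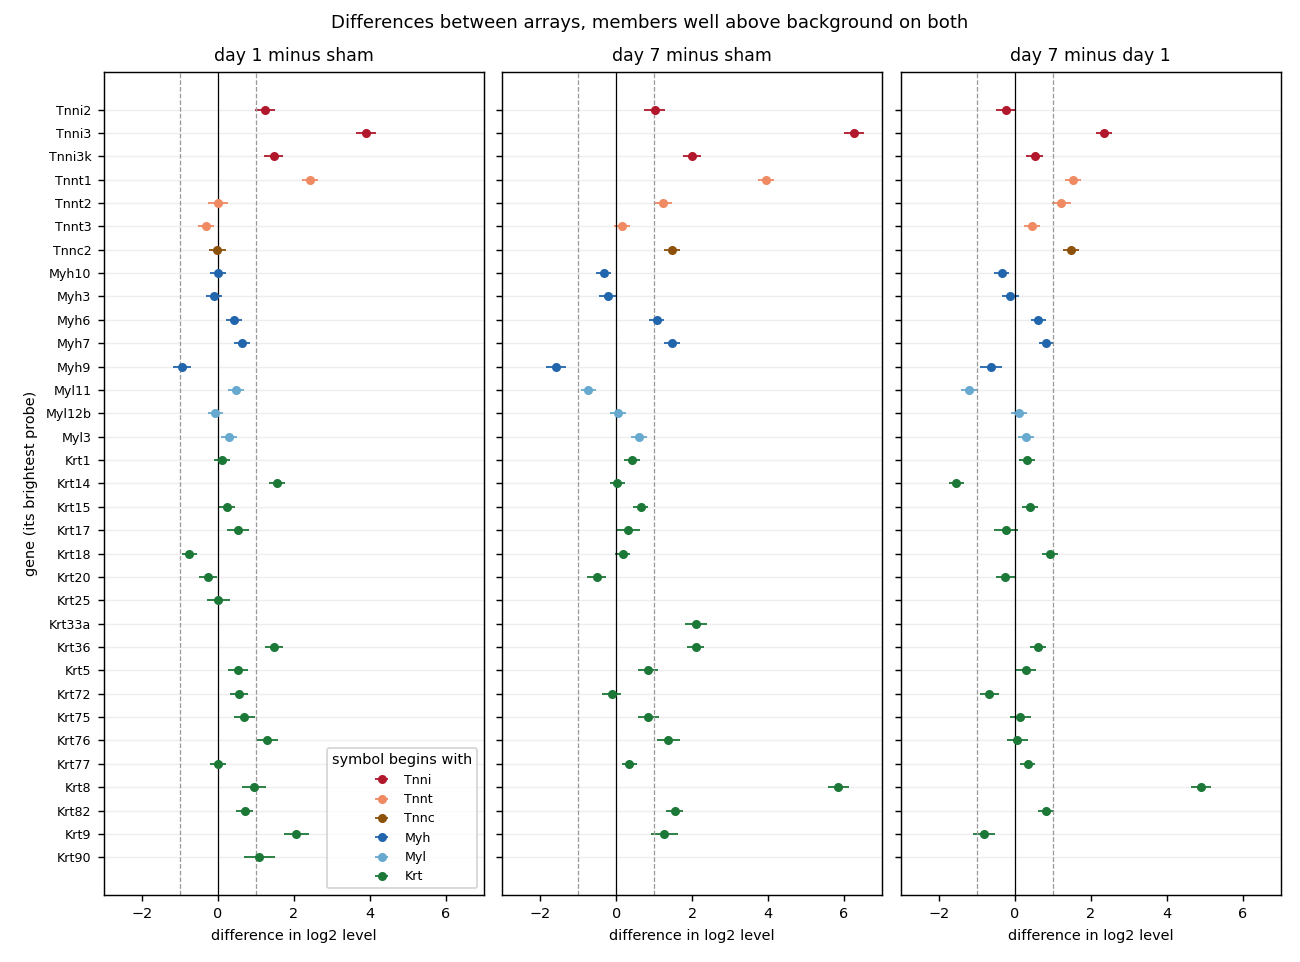
Differences in log2 level between pairs of arrays are plotted for members well above background on both, with bars for the scanner software's error of the 2 spots and dashed lines at 2-fold. At day 7 Tnni3, Krt8 and Tnnt1 stand at 6.25, 5.85 and 3.95, while the next highest members lie near 2.

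Counted together, 14 of 31 members measured on both arrays were at least 2-fold higher at day 7 than in sham, against 11.1% of all 6261 genes, and 1 was lower, against 5.73%. The choice of the families used this pair of arrays, so nothing is read from that count. The median difference of the members was 0.83 log2, with 0.05 for all genes. Without Tnni3, Tnnt1 and Krt8 the count was 11 of 28, with a median of 0.62. At day 1, 9 of 32 members were at least 2-fold higher, against 8.26% of 6292 genes, and none was lower, against 4.37%. The median was 0.50 log2 (0.00 for all genes), and 25 of 32 members lay above sham, against 50.1% of all genes and 57.8% of the dimmer genes, among which 28 of the 32 lie. Both days are set against the same sham array, so the counts of the 2 days are not independent, and the choice bears on day 1 too. Without Tnni3, Tnnt1 and Krt8 the day 1 count was 7 of 29, with a median of 0.44. Between the days, 5 of 30 members were at least 2-fold higher at day 7 (Tnni3, Tnnt1, Tnnt2, Tnnc2 and Krt8), against 6.56% of 6142 genes. Lower were 2 (Krt14 and Myl11), against 5.32%. This pair also holds the day 7 values that led to the choice. Without Tnni3, Tnnt1 and Krt8, 2 of 27 were higher (7.41%), near the share of all genes.

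Most members were dim, and dim genes differed more often on these arrays. When all measured genes were split at their median level, 26 of the 31 members at day 7 were among the dimmer genes. Of these 26, 14 were at least 2-fold higher, against 18.3% of all dimmer genes, and of the 5 members among the brighter genes none was, against 3.96%. At day 1 the dimmer genes held 28 members with 8 higher, against 12.3%, and the brighter genes 4 with 1 higher (Krt14), against 4.23%. The part of dimness in these counts was not tested. Among genes with only a bound, 149 of 171 that were detected at day 1 and not in sham had a bound of at least 2-fold (87.1%), as did Myh4, Krt19 and Krt24. At day 7 it was 192 of 200 (96%), Krt26 among them. A bound past 2-fold was thus the usual outcome for a gene seen after surgery and not in sham. For genes seen at day 7 and not at day 1 it was 127 of 329 (38.6%). The lowest level well above background was -6.41 log2 in sham, -5.59 at day 1 and -5.55 at day 7.

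**Figure D3:**
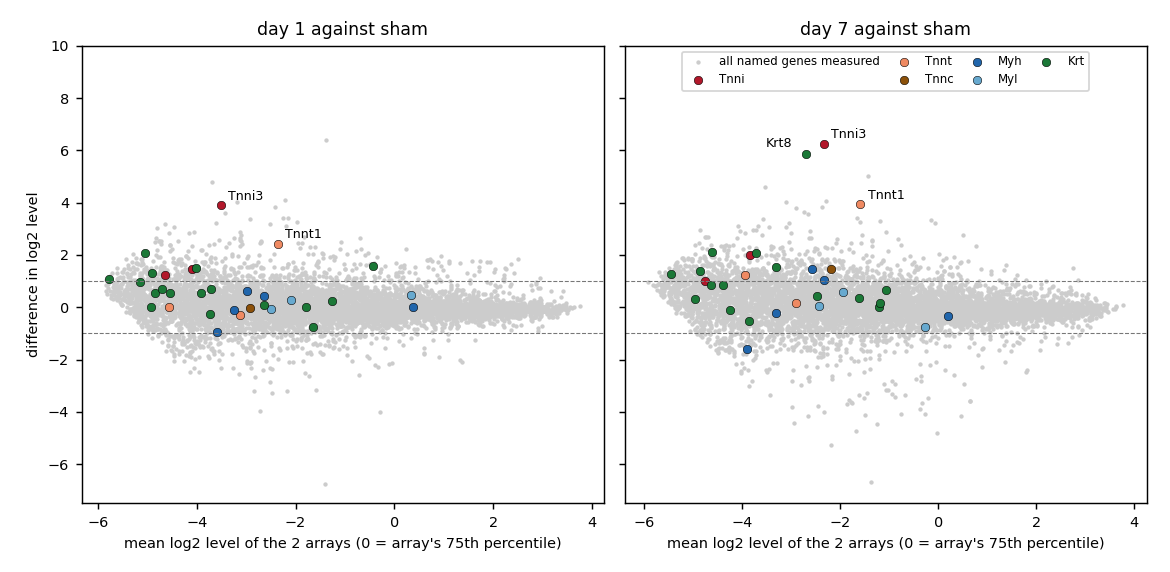
Each point is a gene measured on both arrays, plotted by mean log2 level (x axis) and difference in log2 level against sham (y axis), with members coloured by symbol prefix and dashed lines at 2-fold. Most members lie at low levels, where the grey cloud of all genes is also wide, and at day 7 Tnni3 (6.25) and Krt8 (5.85) are the 2 highest genes.

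Over the 30 members measured on all arrays, 16 stepped up from sham to day 1 and again to day 7, against 22.4% of 6047 genes, and sham was the lowest of the 3 arrays for 20 of them, against 36.1%. Both counts use the sham and day 7 values that led to the choice, so nothing is read from them. By the muscle in which they are best known (a grouping made after the values were seen), heart genes were higher at day 7 for 4 of 5 measured (Tnni3, Tnnt2, Myh6 and Myh7, with Myl3 at 0.59 log2), and slow skeletal genes for 2 of 3 (Tnnt1 and again Myh7, with Myl3 counted here too). Fast skeletal genes were higher for 2 of 4 (Tnni2 and Tnnc2, with Tnnt3 at 0.15 and Myl11 at -0.74). Hair and root sheath keratins were higher for 3 of 5, keratins of layered epithelia for 2 of 8, and simple epithelial keratins for 1 of 3. The share over all genes was 11.1%, and these counts also rest on the values that led to the choice. Values past 2-fold at day 7 thus came from the Tnni, Tnnt, Tnnc, Myh and Krt genes, most of them between 2-fold and 4.29-fold. The next highest gene after Tnni3 in its family was Tnni3k (1.99 log2), after Tnnt1 it was Tnnt2 (1.24), and after Krt8 it was Krt33a (2.10).

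Single probes carry most of these values. Of the 46 genes, 43 had 1 probe named through RefSeq, and only Krt18, Myh3 and Myh10 had more. No member that was 2-fold different by its brightest named probe had a further named probe to set beside it. Only 10768 of 41012 probes were named, so whether other probes of these genes lie among the rest is not known. Over all genes with 2 measured probes, differences at day 7 against sham differed between the 2 probes by a median of 0.41 log2 and by 1.41 at the 90th percentile (1121 genes). Of 49 such genes at least 2-fold higher by the brighter probe, 19 were so by the next, and at day 1 it was 12 of 50.

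The raw signals of the spots behind the largest values were set beside those of their nearest spots. At day 7 the raw median pixel signal was 10859 on the Tnni3 spot (229 in sham) over a local background of 48.0, while the 8 nearest spots differed from sham by a median of 0.25 log2. For Tnnt1 the raw signal was 7147 (544 in sham) and the nearest spots differed by -0.07. Krt8 read 6520 (190 in sham) with 0.22 for its neighbours, and Krt26 read 1461 (54.0 in sham) with 0.05. Brighter spots lay near some of them: at day 7 the highest of the 8 nearest read 61525 for Tnnt1, 24532 for Krt8 and 40660 for Krt26, and 4173 for Tnni3. Local background on the 50 spots lay between 37 and 58.5 on all arrays.

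**Figure D4:**
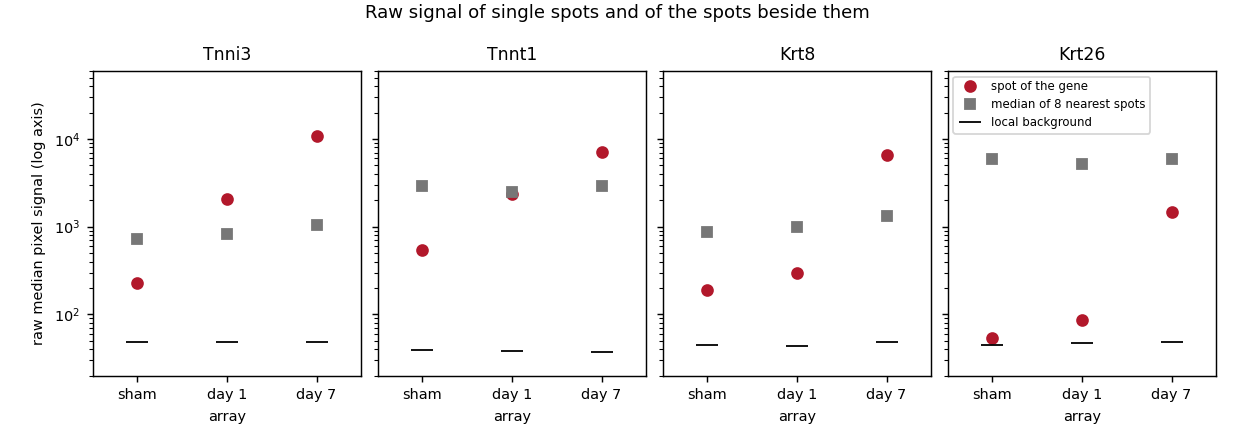
Raw median pixel signal (log axis) is shown for the spots of Tnni3, Tnnt1, Krt8 and Krt26 on each array, with the median of the 8 nearest spots and the local background. The spots of the 4 genes are at 10859, 7147, 6520 and 1461 at day 7, while the median of the nearest spots was 733 in sham and 1048 at day 7 for Tnni3, 2928 and 2941 for Tnnt1, 864 and 1313 for Krt8, and 5927 and 5894 for Krt26.

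Position in the genome, taken as gene order in the RefSeq annotation of GRCr8, set some of these genes side by side. Tnni3 and Tnnt1, the 2 troponins with the largest differences, are direct neighbours with no protein-coding gene between them. Syt5, a synaptotagmin 2 genes away from Tnni3, was at 0.80 log2 (day 1) and 1.27 (day 7). Hspbp1, 6 genes away, was at 0.42 and -0.53, and no further gene among the 6 on each side had a probe named here. Krt8 and Krt18 are also direct neighbours but stood 5.85 and 0.17 above sham at day 7, and Eif4b, next after Krt18, was at 0.14. Igfbp6, 5 genes from Krt8, was at -2.14. Among other direct keratin neighbours measured at day 7, Krt14 and Krt9 were at 0.02 and 1.26, Krt76 and Krt77 at 1.37 and 0.34, and Krt1 and Krt77 at 0.41 and 0.34.

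The 250 bases before the annotated start are printed for these 2 neighbouring pairs, because one pair was high together and the other was not. They are RefSeq sequences of GRCr8, 5′ to 3′ on the strand of the gene, with capitals on the E-box letters CANNTG, a core that muscle regulatory factors bind, and on the TATA box letters TATAAA, both searched on both strands. They are chr1:78342321-78342570 (+) for Tnni3, chr1:78348785-78349034 (+) for Tnnt1, chr7:135010340-135010589 (-) for Krt8 and chr7:135035918-135036167 (+) for Krt18.
Tnni3: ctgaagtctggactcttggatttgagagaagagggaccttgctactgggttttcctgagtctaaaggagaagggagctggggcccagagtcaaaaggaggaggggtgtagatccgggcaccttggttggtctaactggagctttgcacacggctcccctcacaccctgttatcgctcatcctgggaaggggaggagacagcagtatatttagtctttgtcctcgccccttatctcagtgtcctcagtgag
Tnnt1: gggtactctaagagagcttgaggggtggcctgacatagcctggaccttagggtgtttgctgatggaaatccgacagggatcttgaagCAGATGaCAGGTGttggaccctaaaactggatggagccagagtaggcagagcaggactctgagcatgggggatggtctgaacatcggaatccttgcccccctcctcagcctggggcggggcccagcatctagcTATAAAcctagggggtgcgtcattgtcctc
Krt8: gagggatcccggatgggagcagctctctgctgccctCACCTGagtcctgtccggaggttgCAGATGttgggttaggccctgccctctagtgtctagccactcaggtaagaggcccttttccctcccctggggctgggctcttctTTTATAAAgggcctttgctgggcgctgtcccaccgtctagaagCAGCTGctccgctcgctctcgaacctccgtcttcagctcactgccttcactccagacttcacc
Krt18: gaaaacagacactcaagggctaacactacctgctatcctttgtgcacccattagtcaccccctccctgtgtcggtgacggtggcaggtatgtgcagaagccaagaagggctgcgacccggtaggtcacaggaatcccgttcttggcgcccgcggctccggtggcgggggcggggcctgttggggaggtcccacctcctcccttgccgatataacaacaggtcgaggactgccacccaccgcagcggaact

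Tnnt1 held 2 E-boxes, beginning at -163 and -156 from the start, and a TATA box at -30. Krt8 held 3 E-boxes (-214, -190 and -63) and 2 overlapping TATA matches at -106 and -104. Tnni3 and Krt18 held neither set of letters in this window. The genes of each pair thus differ in these letters. Of 33469 promoters of this length, 65.5% held an E-box and 12.9% TATAAA. Of the 46 members, 37 had a promoter matched by symbol, and 28 of these held an E-box and 16 (43.2%) TATAAA. The M-CAT letters CATTCC of muscle promoters were in 8 of 37, against 12.1% of all. A CArG box was in 2, against 501 of all 33469, and a MEF2 site in 3, against 2.96%. The GC box letters GGGCGG were in 9 of 37, against 30.5% of all. The GATA letters AGATAA were in 5, against 10.3%, and the AP-1 letters TGANTCA in 1, against 6.34%. Tnni3 held 1 GATA match at -22, and Tnnt1 and Krt18 each held 1 GC box, at -51 and -84. A match describes letters and not a bound site.

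Other genes of the sarcomere and of epithelia were set beside the members. Tnni3, Tnnt1, Krt8 and Krt26 led to the choice by their high day 7 values. Nothing is therefore read from smaller differences in the other lists. Of 31 other sarcomere genes listed, 11 had a probe named through RefSeq, and whether the array holds the others is not known. The lists below were cut in the same way. All 11 were measured at day 7 and 2 were at least 2-fold higher: Pdlim3, a Z-disc protein (2.15 log2), and Csrp3, a muscle LIM protein (1.94). The median of the 11 was -0.08. Their summed level was 15.2, 14.7 and 13.4 times the 75th percentile in sham, day 1 and day 7. Most of that sum came from Tpm1 (levels of 2.63, 2.54 and 2.40 log2) and Tpm3 (2.26, 2.13 and 2.15). The skeletal actin Acta1 was at -0.14 and -0.47 log2 (day 1, day 7 against sham), and the heart actin Actc1 at 2.66 and 0.59. The tropomyosins Tpm1, Tpm2 and Tpm3, on which troponin sits, lay between -0.23 and 0.27 on both days, and Tpm4 at 1.10 and 0.35.

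Of 24 skeletal muscle markers listed, 13 had a named probe. Of the 9 measured at day 7 none was 2-fold different, with a median of 0.02. The muscle creatine kinase Ckm was at 0.74, myoglobin (Mb) at -0.33, desmin (Des) at -0.78 and Myod1, a muscle-specific transcription factor, at -0.72. The muscle acetylcholine receptor Chrna1 and the transcription factor Myf6 were not well above background on any array. The list's summed level was 1.83, 1.57 and 1.95. Of 9 heart markers measured, 3 were higher: Csrp3, also in the list above, and the calcium-store proteins Trdn (1.39) and Casq2 (1.36). Nppa, the atrial peptide, was lower (-1.79). Sln, which regulates the calcium pump, was at least 5.29-fold higher, Nppb was not well above background on any array, and the summed level was 2.09, 2.23 and 2.33. Smooth muscle and pericyte markers had a median of -0.25, with none of 8 past 2-fold. Their summed level was 16.1, 17.3 and 4.65, most of it from Notch3, which was saturated in sham and at day 1 and is not among the 8. The part of muscle tissue in the troponin values was not tested beyond these levels.

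Of 7 simple epithelium markers measured at day 7, 3 were higher (the transcription factor Elf3 at 1.86, the protease inhibitor Spint2 at 1.19 and the protease Prss8 at 1.17) and 1 lower (the tight junction gene Cldn4 at -1.72), with a median of -0.16. The defining markers were mixed. Epcam was not well above background on any array, and Cdh1 (E-cadherin) was well above it in sham only, at least 6.36-fold lower at day 7. Cldn7, another tight junction gene, was at least 4.13-fold higher, and the protease St14 at least 3.60-fold. The list's summed level was 6.95, 5.47 and 5.80, most of it from the tight junction gene Cldn3 (levels of 2.40, 1.97 and 1.98 log2). Stratified epithelium markers had 1 of 5 lower, involucrin (Ivl, -1.69), none of the 5 higher and a median of -0.63. Only 6 of the 25 listed had a named probe. Their summed level was 3.06, 2.85 and 2.27, most of it from Jup (levels of 1.48, 1.45 and 1.06 log2). Dsc2, a desmosome gene seen at day 7 only, was at least 2.61-fold higher than in sham.

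Ciliated and secretory cells that line the nearby ventricle also carry epithelial genes. Ependymal markers were higher at day 7 for 3 of 5 measured, the cilium genes Rsph1 (2.94) and Drc12 (2.28) and Foxj1 (1.77), which drives the making of cilia, while the cilium gene Tekt1 was at -0.88 and Mia at 0.16, with a summed level of 0.62, 0.70 and 1.60. Choroid plexus markers were higher for 2 of 4, Sostdc1 (1.86) and Folr1 (1.72), with Ttr at -0.10 and a summed level of 0.79, 0.66 and 1.36. Spag6l was not well above background on any array, and Aqp1 of the choroid plexus list was at least 2.10-fold higher at day 7. At day 1 none of 3 measured ependymal markers passed 2-fold, and Tekt1 was at least 3.53-fold lower than in sham. Of the choroid plexus markers Kcnj13 was then at 1.55 and Ttr at -1.20. The summed levels of both lists were higher at day 7, as Krt8 was, and their part in its value was not tested. In bulk tissue a larger share of a cell type and more RNA per cell cannot be told apart. Meningeal and fibroblast markers had none of 6 past 2-fold at day 7, with a median of 0.69.

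Of 10 other intermediate filament genes measured at day 7, 4 were at least 2-fold lower (the neurofilaments and nestin: Nefh at -2.30, Nefl at -1.61, Nefm at -1.17 and Nes at -1.09) and only Vim was higher (1.57), with a median of -0.68. The same list had none of 10 past 2-fold at day 1.

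**Figure D5:**
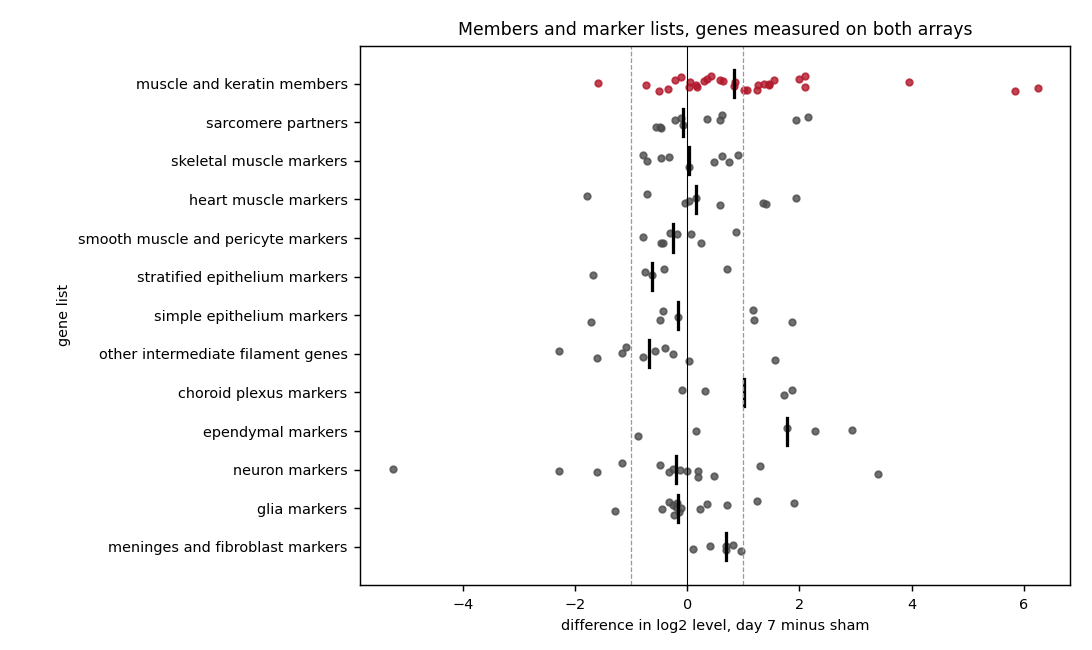
Differences in log2 level between day 7 and sham are shown for the 31 measured members and for the measured genes of each marker list, 1 point per gene, with a bar at the median. The 3 highest member values of 6.25, 5.85 and 3.95 belong to genes that led to the choice of the families. Nothing is therefore read from their place above every gene of the marker lists. The list medians lie between -0.68 (other intermediate filaments) and 1.77 (ependymal markers).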

How the data were processed

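Agilent's Feature Extraction software (10.7.3.1) made the scanner files, per the file headers. The deposited files give a processed intensity per spot on a linear scale, background-subtracted by that software and not scaled between arrays, and flags of 0 or 1 for well above background, saturated and outlier spots. The authors' series table holds intensities of the same arrays and served as an alternative.

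Control spots were left out, and levels were taken as log2 minus the array's 75th percentile (Python 3.11.15, pandas 2.3.3). Probes were named by the RefSeq accession in their SystematicName through the GRCr8 gene table, which matched 10768 of 41012 probes. Each gene was represented by its brightest probe, by mean level. A pair of arrays measured it where neither spot was saturated and both were well above background, and 2-fold was called higher or lower. A gene with no probe well above background on 1 array of a pair is given by a bound ("at least"): the bright level over the higher of the dim spot's level and the lowest level well above background on that array. With 1 array per group there was no test, and the number of arrays limits the precision. The scanner error of a difference joins the relative errors of both spots.

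Named were all troponin genes, the Krt, Myh and Myl genes past 2-fold or with a bound, Krt8 and Krt18, the non-muscle genes, and up to 3 genes per direction of each marker list. Further genes (such as Ckm, Acta1, Krt1 and the defining markers) were chosen after their values were seen. The members, the lists and these rules were chosen with earlier results of these data known. The calling of differences was tested on simulated data. Normexp (offset 50) and cyclic loess used limma 3.58.1.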

Additional observations from a re-analysis of the deposited data

How the results depend on the processing

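10 alternatives were run, and no called value of a named member changed sign under any of them. Of 31 called values, 26 kept their direction and 2-fold size under every alternative that gave a value. The other 5 were Tnni2 on both days, Krt9 and Myh6 at day 7 and Krt90 at day 1, all lost under 1 or more of quantile normalization, cyclic loess, no scaling and normexp. Sizes also depended on the processing. Under normexp, Tnni3 at day 7 against sham was at 5.53 log2, where the main setting gave 6.25. Krt8 was at 5.03 in place of 5.85, and Tnnt1 at 3.67 in place of 3.95. Keeping only genes brighter than the median detected probe left 8 members at day 7 against sham. Of these, 3 were higher (Krt8, Tnni3 and Tnnt1) and 0 lower, against 5.78% and 5.69% of all genes kept. It left 8 at day 7 against day 1, with the same 3 higher, against 4.57%. These 3 led to the choice of the families, so nothing is read from either count. At day 1 against sham it left 6, with 2 higher (Krt14 and Tnnt1), against 5.22%. Fewer genes were tested there. The member medians were 0.40, 0.66 and 0.36 log2. With no filter on dim probes all 46 members entered. On the day 1 array, 14 members exceeded sham at least 2-fold, against 10.6% of all genes, and 1 was lower, against 7.17%. The day 7 array had 18 above sham by this measure, against 14.3%, and 2 below it, against 8.12% (member median 0.62). From day 1 to day 7 the members past 2-fold were 10 upward, against 9.79%, and 7 downward, against 8.01%. Nothing is read from the day 7 counts, which hold the values that led to the choice.

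Myh9 was 1 member 2-fold lower at day 1 under quantile normalization, cyclic loess and no scaling. The member median at day 1 was then 0.38 under each of these. At day 7 against sham it was 0.64 under quantile normalization, 0.63 under cyclic loess and 0.56 under normexp, and at day 7 against day 1 it was 0.42 without scaling. The cause of these shifts was not tested. Without scaling, the all-gene median moved to -0.12 (day 1, sham) and to 0.15 (day 7, day 1). Of all genes past 2-fold, 65.4% were higher at day 1 and 53.6% without scaling. At day 7 against sham it was 66.0% and, under cyclic loess, 55.1%. For day 7 against day 1 it was 55.2% and, without scaling, 66.0%.

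No paired analysis was possible because each group has 1 array, and no replicate could be left out. Normexp used the spot's median signal, where the mean had been planned. The alternative on gene names was not run, since SystematicName was the only name used. Dimness is a limit too, with 26 of 31 members below the median level.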
